A study of Mus musculus with 10 samples.

Results

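A set of 9 complement genes outside the C1q chains were followed across ribosome-bound RNA from mouse cortex: C1ra, Serping1, C4b, C3, C2, Cfb, Cd59a, C3ar1 and C5ar1. They are 9 of the 55536 gene identifiers in the deposited count table and were found by matching identifiers to these symbols, not by their values. The list of symbols was itself chosen with earlier results of these data known. Complement is a cascade of blood and tissue proteins that marks surfaces for removal. In the classical route C1q binds a surface, its partner proteases C1r and C1s cut C4 and C2, and the resulting convertase cuts C3. Factor B does the same job as C2 in the alternative route, C1 inhibitor and CD59 restrain the first and last steps, and the small fragments of C3 and C5 act on myeloid cells through their receptors. In the brain, glial cells make much of the early cascade, and C1q and C3 are known for tagging synapses that microglia remove.

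Translating ribosome affinity purification (TRAP) was used to profile RNA on ribosomes of cells that carry Cre. Groups were named by genotype: 3 libraries from Il-17rb-Cre mice, 3 from Il-17ra-Cre mice and 4 from Il-17rc-Cre mice, in which Cre marks cells using the gene of an interleukin-17 receptor subunit. All groups received the same AAV5-EF1α-Flex-EGFPL10a virus at 400 nl per side in the area labelled S1DZ, in primary somatosensory cortex, and tissue was taken 4 weeks later. The virus carries a GFP-tagged ribosomal protein L10a that is switched on only by Cre. Each library is thus meant to reflect the cells that both took up the virus and used that driver. Each library therefore depends on which cell types AAV5 reaches and the EF1α promoter serves. The labels give neither the animals' age and sex nor whether replicates were separate animals, so a p-value here reflects the spread between these libraries alone. Libraries of untagged tissue were not analysed here, so RNA of other cells carried over in the pull-down cannot be told apart from RNA of tagged cells.

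Total counts ranged between 39692925 in Il-17ra-Cre replicate 2 and 165844244 in Il-17ra-Cre replicate 3. The driver labels could be checked only in part: Il17rc averaged 1.89 CPM (counts scaled to library size, after TMM) in libraries labelled Il-17rb-Cre, 29.4 CPM in those labelled Il-17ra-Cre and 28.3 CPM in those labelled Il-17rc-Cre, while Il17rb, the gene named in the first label, averaged 0.714 CPM in libraries labelled Il-17rb-Cre, 2.26 CPM in those labelled Il-17ra-Cre and 1.27 CPM in those labelled Il-17rc-Cre. Il17ra averaged 26.5 CPM in libraries labelled Il-17rb-Cre, 18.5 CPM in those labelled Il-17ra-Cre and 18.8 CPM in those labelled Il-17rc-Cre. The mean of both Il17rb and Il17ra was thus lowest under its own label, for Il17ra by less than the spread between libraries, so group names below mean libraries so labelled, and directions rest on the labels as deposited. Marker genes set the groups apart. Excitatory neuron markers summed to between 17546 and 20624 CPM in Il-17rb-Cre libraries, between 1548 and 6615 CPM in Il-17ra-Cre libraries and between 2130.2 and 3548 CPM in Il-17rc-Cre libraries. Astrocyte markers summed to between 632 and 652 CPM in Il-17rb-Cre libraries, between 6897 and 13576 CPM in Il-17ra-Cre libraries and between 11202 and 17410.0 CPM in Il-17rc-Cre libraries. Replicate 3 stood apart from replicates 1 and 2 of Il-17ra-Cre, with Rpl10a at 678.8 CPM against 58.7 and 70.9 CPM, and with oligodendrocyte markers at 5314 CPM against 44453 and 30383 CPM. Rpl10a averaged 646 CPM in Il-17rb-Cre libraries and 238 CPM in Il-17rc-Cre libraries. Within Il-17rc-Cre, replicates 1 and 3 had microglial markers at 24.8 and 29.9 CPM, and replicates 2 and 4 had 82.8 and 46.9 CPM.

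The complement genes were far lower in Il-17rb-Cre libraries than in either other group. Their summed level was 30.9, 32.8 and 38.1 CPM in the Il-17rb-Cre libraries, 3474, 2359.9 and 565 CPM in the Il-17ra-Cre libraries and 203, 703, 282 and 653 CPM in the Il-17rc-Cre libraries. Of the 9 genes, 8 fell in Il-17rb-Cre against Il-17ra-Cre, where 24.4% of all genes tested fell, and 7 fell against Il-17rc-Cre, where 21.9% did. None rose in Il-17rb-Cre in either comparison, where 16.4% and 17.7% of all genes did. Between Il-17ra-Cre and Il-17rc-Cre no complement gene passed the test, where 1.38% of all genes were called higher and 0.798% lower in Il-17ra-Cre. A gene is said to rise or fall here when its edgeR adjusted p, corrected over all 20301 genes tested, was below 0.05.

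**Figure D1:**
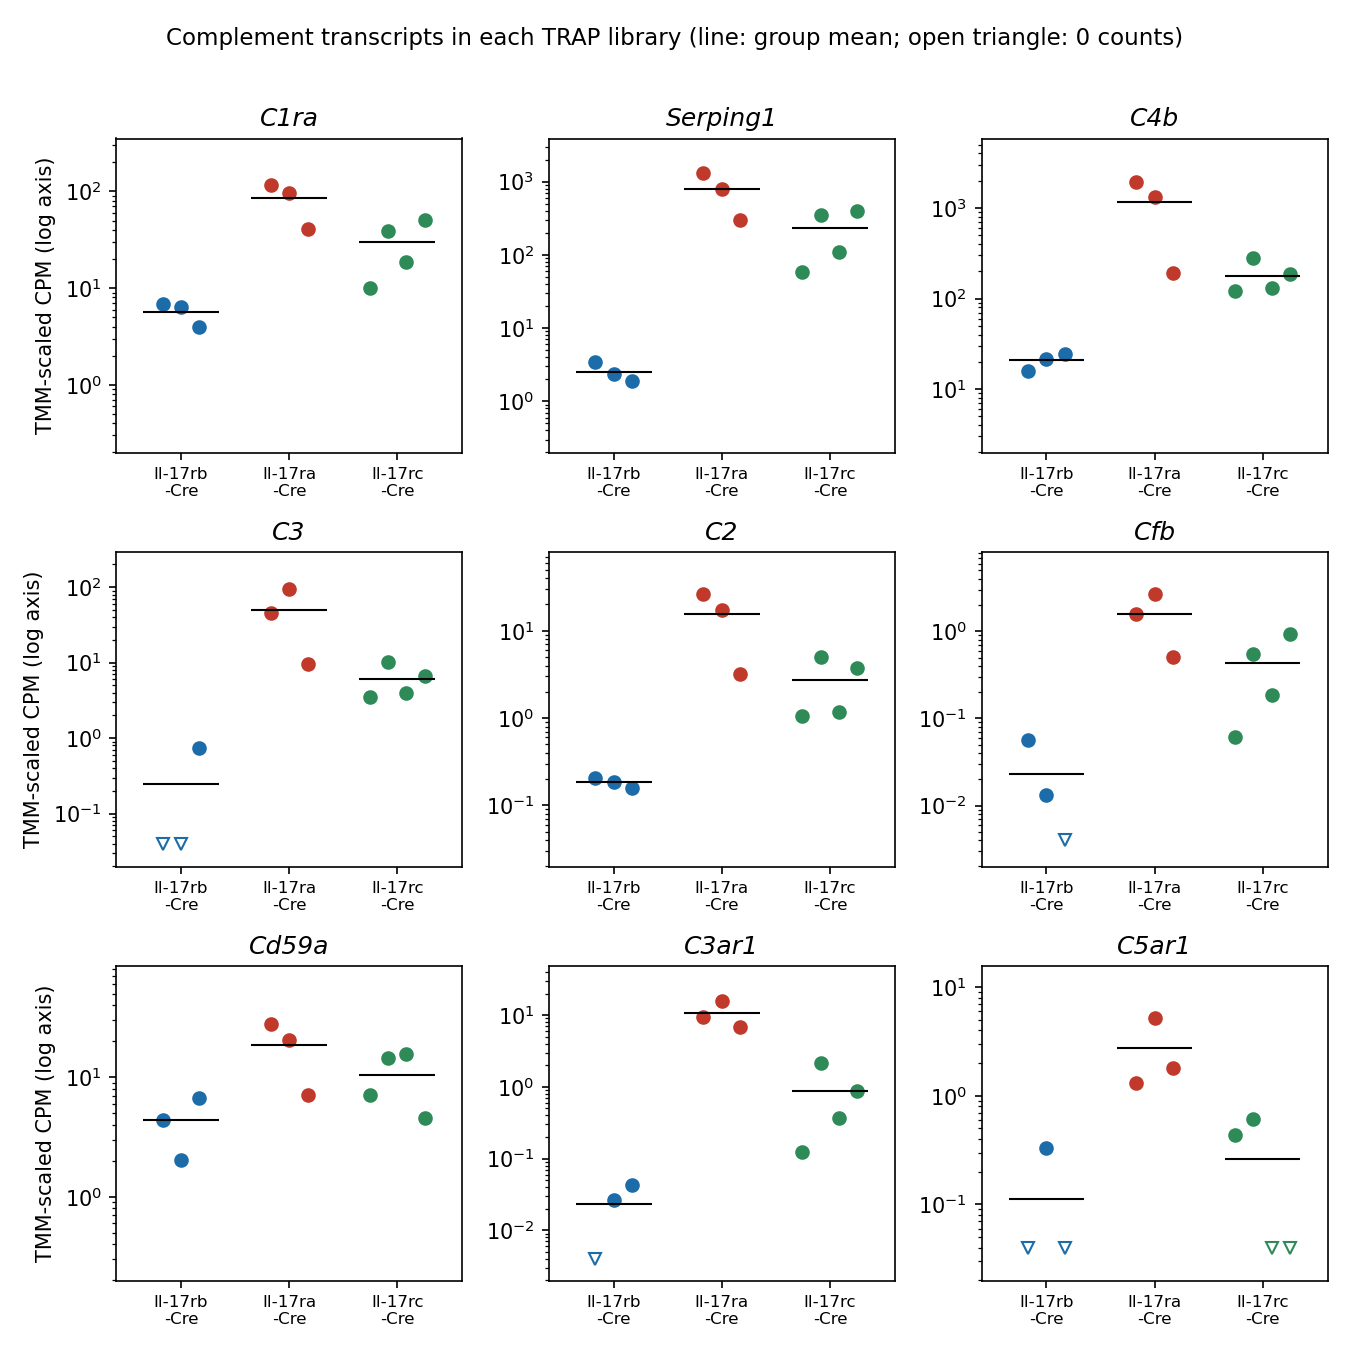
TMM-scaled CPM on a log axis (y) for each of the 9 genes in every library (points), by driver group (x), with the group mean as a line and open triangles for libraries with 0 counts. In each panel the 3 Il-17rb-Cre libraries lie below the 3 Il-17ra-Cre libraries.

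C1ra (ENSMUSG00000055172, GRCm38 chromosome 6, 124512405 to 124523443, plus strand) encodes C1r, the protease that starts the classical cascade once C1q has bound. It was at 6.81, 6.35 and 3.92 CPM in the Il-17rb-Cre libraries, 117, 96.3 and 41.2 CPM in the Il-17ra-Cre libraries and 10.1, 39.4, 18.8 and 51.1 CPM in the Il-17rc-Cre libraries. All Il-17rb-Cre libraries were below all others, while the Il-17ra-Cre and Il-17rc-Cre libraries overlapped. The group means were 5.69 ± 1.56 CPM (SD, n = 3) in Il-17rb-Cre libraries, 85.0 ± 39.4 CPM (n = 3) in Il-17ra-Cre libraries and 29.8 ± 18.7 CPM (n = 4) in Il-17rc-Cre libraries. C1ra fell in Il-17rb-Cre, with a log2 fold change of -3.90 ± 0.63 (SE, edgeR adjusted p = 9.49e-04) against Il-17ra-Cre, a 14.9-fold lower level, and of -2.39 ± 0.57 (edgeR adjusted p = 0.00805) against Il-17rc-Cre. About 48.0% of its 50-base stretches also occur in the copy C1rb, on which 0 reads were counted in Il-17rb-Cre libraries, 4 in Il-17ra-Cre libraries and 1 in Il-17rc-Cre libraries. How reads that match both copies were counted is not stated, so C1ra is uncertain to that extent.

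The starts of C1ra, its copy C1rb and C3 are shown because C1ra and C3 were the 2 cascade genes with an entry in the RefSeq promoter table (GRCm38.p6). That table gave windows for 5 of the 9 genes, from 250 bases before to 50 after the start. The windows are chr6:124512371-124512670 (plus strand) for C1ra, chr6:124570180-124570479 (plus strand) for C1rb and chr17:57228087-57228386 (minus strand) for C3, each 5′ to 3′, with matches to the motifs named below in capitals.
C1ra: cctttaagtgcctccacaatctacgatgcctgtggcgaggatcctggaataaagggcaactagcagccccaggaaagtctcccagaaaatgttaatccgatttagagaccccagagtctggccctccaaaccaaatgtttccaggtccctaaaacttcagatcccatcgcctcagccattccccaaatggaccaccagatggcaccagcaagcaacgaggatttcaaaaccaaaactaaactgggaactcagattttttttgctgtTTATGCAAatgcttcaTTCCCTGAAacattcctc
C1rb: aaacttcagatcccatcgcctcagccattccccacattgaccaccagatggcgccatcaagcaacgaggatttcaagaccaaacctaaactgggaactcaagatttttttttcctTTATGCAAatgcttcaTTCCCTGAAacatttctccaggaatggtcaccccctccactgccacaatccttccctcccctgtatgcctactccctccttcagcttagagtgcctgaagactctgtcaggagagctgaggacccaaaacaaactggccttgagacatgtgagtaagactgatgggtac
C3: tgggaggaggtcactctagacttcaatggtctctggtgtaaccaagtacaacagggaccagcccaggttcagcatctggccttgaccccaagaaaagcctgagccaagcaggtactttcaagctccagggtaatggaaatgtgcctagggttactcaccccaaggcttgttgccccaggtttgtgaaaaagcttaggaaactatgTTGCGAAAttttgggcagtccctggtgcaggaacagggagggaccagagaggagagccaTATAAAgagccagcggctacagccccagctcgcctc
Both strands were searched for TTCNNNGAA (the core of sites for STAT factors), the core of interferon-stimulated response elements (GAAA, any 2 bases, GAAA), TTGCNNAA (a form of C/EBP sites) and TATAAA. The C1ra window held TTCCCTGAA at bases 283 to 291 and TTATGCAA, a C/EBP form read on the other strand, at bases 267 to 274. These C1ra matches lie after the start used by that promoter table, while C1rb held the same pair before the start used there. In GENCODE, C1rb starts at 124570294, upstream of its pair, so this contrast depends on the start chosen. The C3 window held TTGCGAAA at bases 206 to 213, before the start, and TATAAA at bases 265 to 270, after it. Of 32851 promoter windows, 8.3% held the first motif, 3.44% the second, 10.8% the third and 13.6% the last. Of the other windows, Cd59a held GAAAGGGAAA at bases 64 to 73, C3ar1 held TATAAA at bases 16 to 21 and C5ar1 held none of these motifs. A match describes letters and not a bound site.

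Serping1 (ENSMUSG00000023224, chromosome 2, 84765387 to 84775444, minus strand) encodes C1 inhibitor, the serpin that blocks C1r and C1s. It was at 3.43, 2.34 and 1.87 CPM in the Il-17rb-Cre libraries, 1296, 797 and 302 CPM in the Il-17ra-Cre libraries and 58.2, 352, 110.35 and 399 CPM in the Il-17rc-Cre libraries. The lowest library of the other groups was still more than any Il-17rb-Cre library, and the 2 highest Il-17rc-Cre libraries were above Il-17ra-Cre replicate 3. The log2 fold change of Il-17rb-Cre was -8.29 ± 0.96 against Il-17ra-Cre (edgeR adjusted p = 1.41e-04) and -6.50 ± 0.88 against Il-17rc-Cre (edgeR adjusted p = 3.15e-04). In the first comparison only 1.42% of tested genes had a lower value. Its level was 314-fold lower than in Il-17ra-Cre and 90.5-fold lower than in Il-17rc-Cre.

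C4b (ENSMUSG00000073418, chromosome 17, 34728380 to 34743882, minus strand) encodes C4, whose cut product attaches to surfaces. It was at 16.0, 21.5 and 24.7 CPM in the Il-17rb-Cre libraries, 1949, 1309 and 192 CPM in the Il-17ra-Cre libraries and 122, 279, 131 and 187 CPM in the Il-17rc-Cre libraries. Replicate 3 of Il-17ra-Cre lay within the range of the Il-17rc-Cre libraries, while replicates 1 and 2 lay above all of them. C4b fell in Il-17rb-Cre, with log2 fold changes of -5.79 ± 0.78 against Il-17ra-Cre (edgeR adjusted p = 3.37e-04) and -3.11 ± 0.67 against Il-17rc-Cre (edgeR adjusted p = 0.00448). With replicate 3 as the one remaining Il-17ra-Cre library, the first value was -3.20, and without replicate 1 alone it was -5.16 and still called. About 34.6% of its 50-base stretches also occur in the neighbouring copy C4a, on which 22 reads were counted in Il-17rb-Cre libraries, 30 in Il-17ra-Cre libraries and 4 in Il-17rc-Cre libraries.

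C3 (ENSMUSG00000024164, chromosome 17, 57203970 to 57228136, minus strand) encodes the protein on which the routes of the cascade converge. No read of it was counted in Il-17rb-Cre replicates 1 and 2, which allows up to 0.0563 and 0.0400 CPM at 3 counts, and replicate 3 had 52 reads, or 0.743 CPM. It was at 45.3, 96.0 and 9.69 CPM in the Il-17ra-Cre libraries and 3.50, 10.1, 3.94 and 6.66 CPM in the Il-17rc-Cre libraries. All its Il-17rb-Cre reads came from 1 library, which was still below every library of the other groups. The libraries were amplified without molecular identifiers, so the limits given for counts of 0 cover counting error only. C3 fell in Il-17rb-Cre, with log2 fold changes of -7.62 ± 1.45 against Il-17ra-Cre (edgeR adjusted p = 0.00235) and -4.56 ± 1.27 against Il-17rc-Cre (edgeR adjusted p = 0.0168). Without Il-17rb-Cre replicate 3 no C3 read was left in that group, so its fold is then open-ended, and both calls held (edgeR adjusted p = 0.00113 and 0.00288). Without Il-17ra-Cre replicate 2 the first value was -6.77, and without Il-17rb-Cre replicate 2 it was -7.01.

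C2 (ENSMUSG00000024371, chromosome 17, 34862604 to 34898265, minus strand) encodes the protease part of the classical convertase. It was at 0.206, 0.187 and 0.157 CPM in the Il-17rb-Cre libraries, on 11 to 14 reads each, at 26.3, 17.2 and 3.21 CPM in the Il-17ra-Cre libraries and at 1.07, 4.99, 1.19 and 3.72 CPM in the Il-17rc-Cre libraries. The Il-17rb-Cre libraries were the closest to each other and the lowest of all. C2 fell in Il-17rb-Cre, with log2 fold changes of -6.39 ± 0.95 against Il-17ra-Cre (edgeR adjusted p = 6.07e-04) and -3.90 ± 0.85 against Il-17rc-Cre (edgeR adjusted p = 0.00486). Without Il-17ra-Cre replicate 1 the first value was -5.77 and still called.

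Cfb (ENSMUSG00000090231, chromosome 17, 34856374 to 34862518, minus strand) lies next to C2 and encodes factor B, the protease part of the alternative convertase. It had 3, 1 and 0 reads in the Il-17rb-Cre libraries, 58, 101 and 86 reads in the Il-17ra-Cre libraries and 3, 40, 14 and 65 reads in the Il-17rc-Cre libraries. Scaled for depth, the Il-17ra-Cre libraries were at 0.553, 0.949 and 0.178 CPM per kilobase of exon. The means were 0.0232 ± 0.0294 CPM (SD, n = 3) in Il-17rb-Cre libraries, 1.58 ± 1.09 CPM (n = 3) in Il-17ra-Cre libraries and 0.431 ± 0.388 CPM (n = 4) in Il-17rc-Cre libraries. The Il-17rc-Cre library with 3 reads, at 0.0617 CPM, was only slightly above the Il-17rb-Cre library with 3 reads, at 0.0563 CPM. Cfb fell in Il-17rb-Cre, with log2 fold changes of -6.08 ± 1.37 against Il-17ra-Cre (edgeR adjusted p = 0.00564) and -4.22 ± 1.26 against Il-17rc-Cre (edgeR adjusted p = 0.0234). The second call was lost without Il-17rb-Cre replicate 2 or 3 or Il-17rc-Cre replicate 4 (edgeR adjusted p = 0.0826, 0.0689 and 0.0512). Without Il-17rb-Cre replicate 1 the values were -7.52 and -5.70, and without Il-17ra-Cre replicate 2 the first was -5.48, all still called. The readthrough gene Gm20547 covers 79.5% of the exonic bases of Cfb and is among the genes covering 46.9% of those of C2. No read was counted on Gm20547 in any library, and how shared reads were assigned is not stated, so both levels are uncertain.

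C4b, Cfb and C2 share one stretch of chromosome 17, in the mouse major histocompatibility region. C3 lies elsewhere on the same chromosome. The counted levels of these neighbours were far apart, with mean CPM per kilobase of exon in Il-17ra-Cre libraries of 202 for C4b, 0.560 for Cfb and 4.02 for C2. The values of Cfb and C2 divide by full exonic length. They would be too low if reads shared with Gm20547 were left uncounted.

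Cd59a (ENSMUSG00000032679, chromosome 2, 104095801 to 104115354, plus strand) encodes CD59, the membrane protein that stops the lytic pore from forming. It was at 4.39, 2.04 and 6.72 CPM in the Il-17rb-Cre libraries, 28.2, 20.7 and 7.08 CPM in the Il-17ra-Cre libraries and 7.18, 14.4, 15.6 and 4.60 CPM in the Il-17rc-Cre libraries. The highest Il-17rb-Cre library was just below the lowest Il-17ra-Cre library and above Il-17rc-Cre replicate 4. Cd59a fell in Il-17rb-Cre against Il-17ra-Cre, where its log2 value was -2.09 ± 0.63 (SE, edgeR adjusted p = 0.0242). This was the smallest fall among the 9 genes in that comparison. The call was lost without Il-17ra-Cre replicate 1 or 2 or without Il-17rb-Cre replicate 1 or 2 (edgeR adjusted p = 0.0895, 0.0609, 0.0719 and 0.0823), and with Il-17ra-Cre replicate 3 as the one remaining library of its group the value was -0.68. Against Il-17rc-Cre the value was -1.25 ± 0.59 and did not pass (edgeR adjusted p = 0.119). Its copy Cd59b, which shares 3.87% of its 50-base stretches, averaged 3.94 CPM in Il-17rb-Cre libraries, 2.29 CPM in Il-17ra-Cre libraries and 1.49 CPM in Il-17rc-Cre libraries. Cd59b rose in Il-17rb-Cre against Il-17rc-Cre by 1.40 ± 0.44 on the log2 scale (edgeR adjusted p = 0.0284), and its value of 0.79 ± 0.47 against Il-17ra-Cre did not pass (edgeR adjusted p = 0.213).

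C3ar1 (ENSMUSG00000040552, chromosome 6, 122847138 to 122856161, minus strand) encodes the receptor for the C3a fragment and is known as a gene of microglia in the brain. It had 0, 2 and 3 reads in the Il-17rb-Cre libraries. It was at 9.46, 15.9 and 6.95 CPM in the Il-17ra-Cre libraries and 0.123, 2.16, 0.374 and 0.864 CPM in the Il-17rc-Cre libraries. The 3 groups did not overlap, with Il-17rb-Cre lowest and Il-17ra-Cre highest. C3ar1 fell in Il-17rb-Cre, with log2 fold changes of -8.67 ± 1.24 against Il-17ra-Cre (edgeR adjusted p = 4.73e-04) and -5.07 ± 1.11 against Il-17rc-Cre (edgeR adjusted p = 0.00505), both measured on the 5 reads of the Il-17rb-Cre libraries. Without Il-17rb-Cre replicate 3 they were -9.32 and -5.76, and without Il-17rc-Cre replicate 2 the second was -4.13, all still called.

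C5ar1 (ENSMUSG00000049130, chromosome 7, 16246743 to 16259540, minus strand) encodes the receptor for the C5a fragment, which draws and activates phagocytes. It had 0, 25 and 0 reads in the Il-17rb-Cre libraries, 49, 194 and 310 reads in the Il-17ra-Cre libraries and 21, 44, 0 and 0 reads in the Il-17rc-Cre libraries. Scaled for depth, the Il-17ra-Cre libraries were at 0.514, 2.00 and 0.706 CPM per kilobase of exon, so replicate 2 was the highest. Reads were counted in all Il-17ra-Cre libraries and in only some libraries of the other groups. The log2 fold change of Il-17rb-Cre was -4.57 ± 2.00 against Il-17ra-Cre and -1.17 ± 1.73 against Il-17rc-Cre, and neither was called (edgeR adjusted p = 0.093 and 0.624). Without Il-17rb-Cre replicate 2, the library with 25 reads, the first comparison was called (edgeR adjusted p = 0.038), and the fit by limma with quality weights called it as well (adjusted p = 0.00598). The gene of the C5 precursor itself, Hc, had 0 reads in the Il-17rb-Cre libraries, 264 in the Il-17ra-Cre libraries and 216 in the Il-17rc-Cre libraries.

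**Figure D2:**
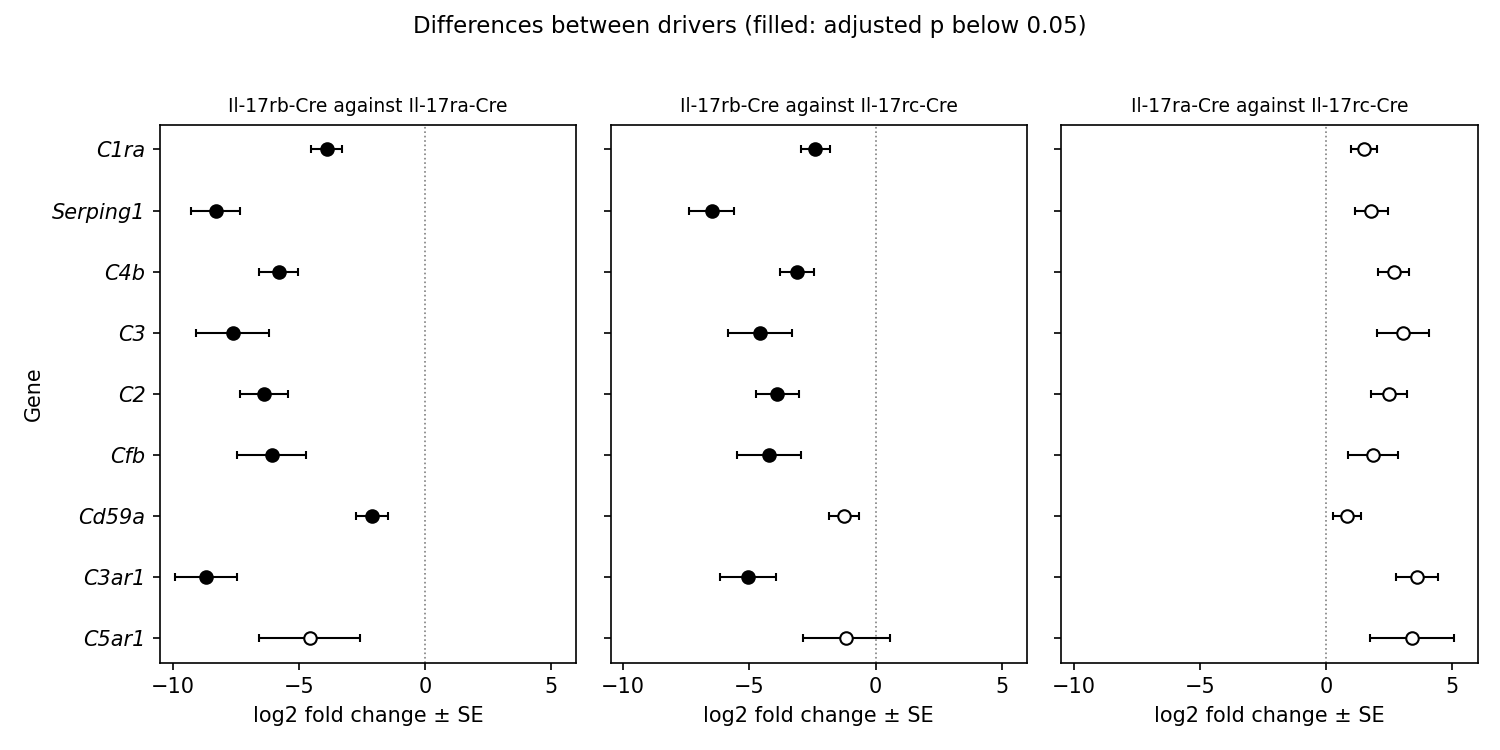
Log2 fold change of each gene in edgeR (x, points) with its standard error (bars) in the 3 comparisons (panels), filled where the adjusted p was below 0.05. The values of Il-17rb-Cre against Il-17ra-Cre run between -8.67 for C3ar1 and -2.09 for Cd59a, and no point is filled for Il-17ra-Cre against Il-17rc-Cre.

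As a group the 9 genes had a median log2 fold change of -6.08 for Il-17rb-Cre against Il-17ra-Cre, where the median over all genes tested was -0.092. Against Il-17rc-Cre the median was -3.90, where that of all genes was 0.023. All 9 genes had every Il-17rb-Cre library below every Il-17ra-Cre library, as did 29.2% of all genes tested, and 7 had every Il-17rb-Cre library below every Il-17rc-Cre library, as did 25.5%. Both comparisons use the same Il-17rb-Cre libraries. The 9 genes were listed with earlier results of these data known, so these contrasts with all genes describe this list only. All 9 genes passed the filter on low counts, and C3, Cfb, C3ar1 and C5ar1 could have passed it only through counts of the other groups, since each was at 0 in at least 1 Il-17rb-Cre library. The counts of lower genes stayed between 7 and 9 against Il-17ra-Cre and between 5 and 7 against Il-17rc-Cre over the alternatives that gave a test. With replicate 3 as the one remaining Il-17ra-Cre library, values with no test were -2.85 for C1ra, -6.88 for Serping1, -5.23 for C3, -4.11 for C2, -4.43 for Cfb, -8.04 for C3ar1 and -3.96 for C5ar1.

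Il-17ra-Cre and Il-17rc-Cre libraries both held these transcripts, and the 9 log2 fold changes between them were all above 0, with a median of 2.50 against 0.032 over all genes tested. The largest was that of C3ar1, 3.60 ± 0.82 (edgeR adjusted p = 0.0534), followed by C5ar1 at 3.41 ± 1.68 (edgeR adjusted p = 0.32) and C3 at 3.05 ± 1.03 (edgeR adjusted p = 0.144). C4b had 2.68 ± 0.60 (edgeR adjusted p = 0.0526) and C2 2.50 ± 0.70 (edgeR adjusted p = 0.0912). None of these passed the test, nor did Cfb at 1.86 ± 0.98 (edgeR adjusted p = 0.355), Serping1 at 1.79 ± 0.65 (edgeR adjusted p = 0.173), C1ra at 1.51 ± 0.52 (edgeR adjusted p = 0.156) or Cd59a at 0.84 ± 0.57 (edgeR adjusted p = 0.493). At an unadjusted p below 0.05, 6 of the 9 were higher in Il-17ra-Cre, as were 10.8% of all genes tested. Only C3ar1 and C5ar1 had every Il-17ra-Cre library above every Il-17rc-Cre library, as did 7.92% of all genes.

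This comparison turned on single libraries. Without Il-17ra-Cre replicate 3, where 7.31% of all genes were called higher in Il-17ra-Cre, 5 of the 9 passed: C1ra at 1.84 (edgeR adjusted p = 0.0472), C4b at 3.18 (edgeR adjusted p = 0.00106), C3 at 3.54 (edgeR adjusted p = 0.0372), C2 at 2.98 (edgeR adjusted p = 0.0123) and C3ar1 at 3.84 (edgeR adjusted p = 0.0246). With replicate 3 as the one remaining Il-17ra-Cre library, C4b was at 0.031, C2 at 0.16, Serping1 at 0.33 and C1ra at 0.40, and Cd59a turned to -0.63, while C3ar1 was at 2.91 and C5ar1 at 2.73. Those values have no test. The values of both receptors thus moved less than those of C4b, C2, Serping1 and C1ra. DESeq2 called 3 of the 9 higher in Il-17ra-Cre (C4b, C2 and C3ar1), where it called 5.04% of all genes, and limma with quality weights called 8, where it called 13.4%. Over all genes, 281 were higher in Il-17ra-Cre with edgeR, but 0 with the replicate block, with a fit of only these 2 groups, and without Il-17ra-Cre replicate 1 or 2, Il-17rc-Cre replicate 3, or Il-17rc-Cre replicates 1 and 3. Calls between Il-17ra-Cre and Il-17rc-Cre given below for markers and other complement genes are lost in those fits, where higher in Il-17ra-Cre.

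The order of abundance among the genes also differed between the groups, compared per kilobase of exon. Serping1 averaged 1.10 CPM per kilobase in Il-17rb-Cre libraries, 343 in Il-17ra-Cre libraries and 98.9 in Il-17rc-Cre libraries. It made up 7.78 to 16.3% of the summed level of the 9 genes in Il-17rb-Cre libraries, 53.0 to 69.6% in Il-17ra-Cre libraries and 45.6 to 75.7% in Il-17rc-Cre libraries, the largest share in every library of both those groups. In Il-17rb-Cre libraries C4b led, with 3.64 CPM per kilobase, followed by Cd59a at 2.42 and C1ra at 1.91. These 3 are thus the transcripts that make up most of the small Il-17rb-Cre signal, with mean shares of 39.6%, 25.4% and 21.2%. Cd59a made up 13.7 to 35.8% of the sum in the Il-17rb-Cre libraries, 1.60 to 2.10% in the Il-17ra-Cre libraries and 1.12 to 9.92% in the Il-17rc-Cre libraries. C3, C2, Cfb, C3ar1 and C5ar1 each averaged below 0.05 CPM per kilobase in Il-17rb-Cre libraries. Levels per kilobase and shares of Cfb and C2 carry the uncertainty from Gm20547 given above.

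**Figure D3:**
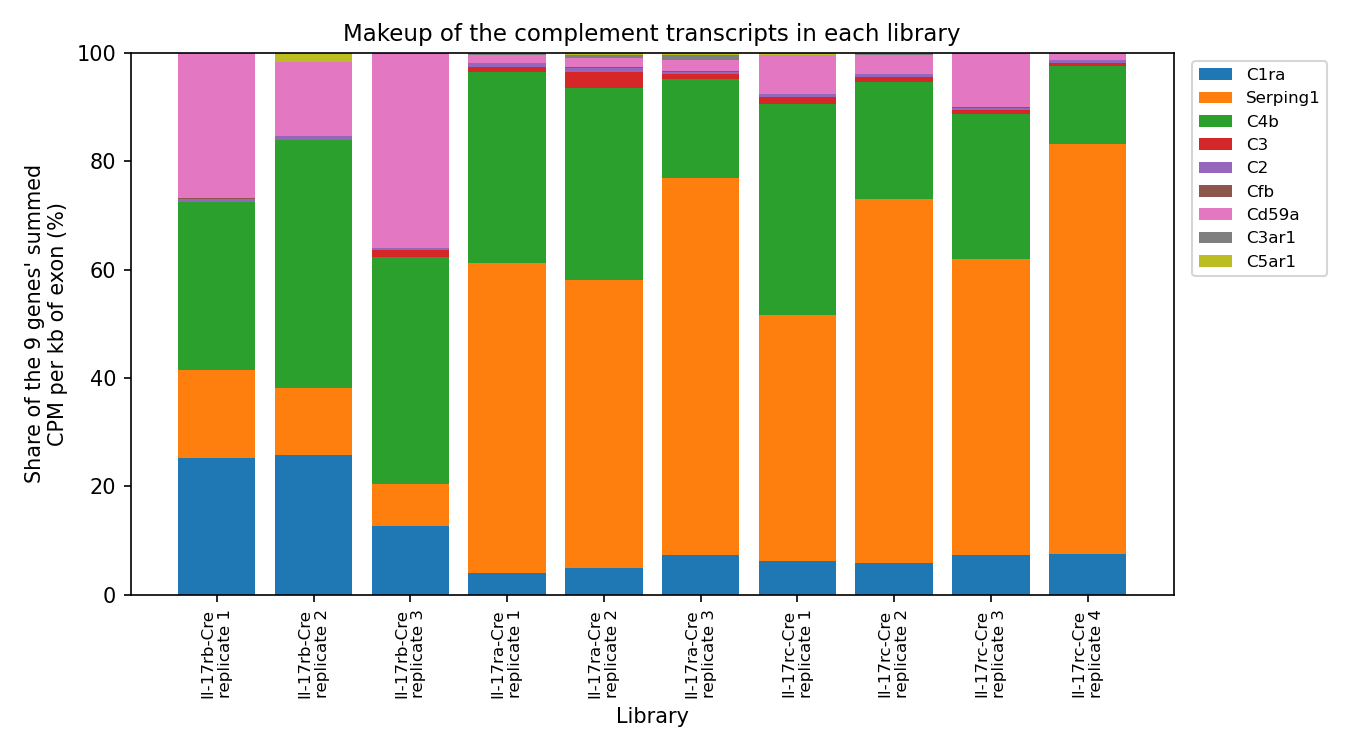
Share (y, %) of each gene in the summed CPM per kilobase of exon of the 9 genes, stacked for each library (x). Serping1 takes 7.78 to 16.3% in the Il-17rb-Cre libraries and at least 45.6% in every other library.

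Markers of several other cell types moved with the complement genes, and their part in the results was not tested. In bulk libraries fewer cells of a type and less RNA per cell cannot be told apart. Of all genes tested, 24.4% fell in Il-17rb-Cre against Il-17ra-Cre and 21.9% against Il-17rc-Cre. Between Il-17ra-Cre and Il-17rc-Cre, 1.38% of all genes were called higher in Il-17ra-Cre. Of 9 microglial markers, 9 fell in Il-17rb-Cre against Il-17ra-Cre and 5 against Il-17rc-Cre, and 3 were higher in Il-17ra-Cre than in Il-17rc-Cre. Their summed level was between 14.8 and 18.4 CPM in Il-17rb-Cre libraries, between 145 and 332 CPM in Il-17ra-Cre libraries and between 24.8 and 82.8 CPM in Il-17rc-Cre libraries. Itgam was at 0 in all Il-17rb-Cre libraries and in 1 Il-17rc-Cre library. The gene Gm49368 covers 68.7% of the exonic bases of Itgam, and how shared reads were assigned is not stated, so its level is uncertain. Of 9 astrocyte markers, all fell in Il-17rb-Cre in both comparisons and none differed between Il-17ra-Cre and Il-17rc-Cre in the test. Of 8 oligodendrocyte markers, 8 fell in Il-17rb-Cre against Il-17ra-Cre and 1 against Il-17rc-Cre, and 8 were higher in Il-17ra-Cre than in Il-17rc-Cre, with sums of 1005 to 1150.0 CPM in Il-17rb-Cre libraries, 5314 to 44453 CPM in Il-17ra-Cre libraries and 1032 to 3928 CPM in Il-17rc-Cre libraries. The 5 oligodendrocyte precursor markers fell in Il-17rb-Cre in both comparisons, with sums of 33.5 to 51.3 CPM in Il-17rb-Cre libraries, 531 to 1229 CPM in Il-17ra-Cre libraries and 511 to 629 CPM in Il-17rc-Cre libraries. Among the Il-17ra-Cre libraries, replicate 3 was lowest for 8 of the 9 complement genes, all but C5ar1, and for 6 of 11 marker lists: astrocyte, oligodendrocyte, oligodendrocyte precursor, microglial, endothelial and fibroblast.

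Vascular and blood cell markers were checked the same way. Endothelial markers, 7 in all, summed to between 1.22 and 6.91 CPM in Il-17rb-Cre libraries, between 44.8 and 385 CPM in Il-17ra-Cre libraries and between 55.6 and 195 CPM in Il-17rc-Cre libraries. Mural markers, 8 in all, summed to 4.32 to 8.78 CPM in Il-17rb-Cre libraries, 119 to 201 CPM in Il-17ra-Cre libraries and 488 to 1053 CPM in Il-17rc-Cre libraries. The 6 fibroblast markers summed to 0.338 to 3.02 CPM in Il-17rb-Cre libraries, 5.08 to 24.9 CPM in Il-17ra-Cre libraries and 18.9 to 31.5 CPM in Il-17rc-Cre libraries. The highest library was in Il-17rc-Cre for the mural and fibroblast lists and in Il-17ra-Cre for the endothelial list. The endothelial sum was mostly Ly6c1 in Il-17ra-Cre libraries, at a mean of 203 CPM, against 48.4 CPM in Il-17rc-Cre libraries. Of the 7 endothelial markers only 2 had a log2 fold change above 0 for Il-17ra-Cre against Il-17rc-Cre, and the median was -0.74. The 5 neutrophil and monocyte markers summed to 0.243 to 0.713 CPM in Il-17rb-Cre libraries, 8.60 to 24.9 CPM in Il-17ra-Cre libraries and 1.37 to 14.4 CPM in Il-17rc-Cre libraries, with S100a9 at 0 in every library. The 5 perivascular macrophage markers stayed at or below 1.63 CPM in every library, with Lyve1 at 0 in all Il-17rb-Cre and Il-17rc-Cre libraries.

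**Figure D4:**
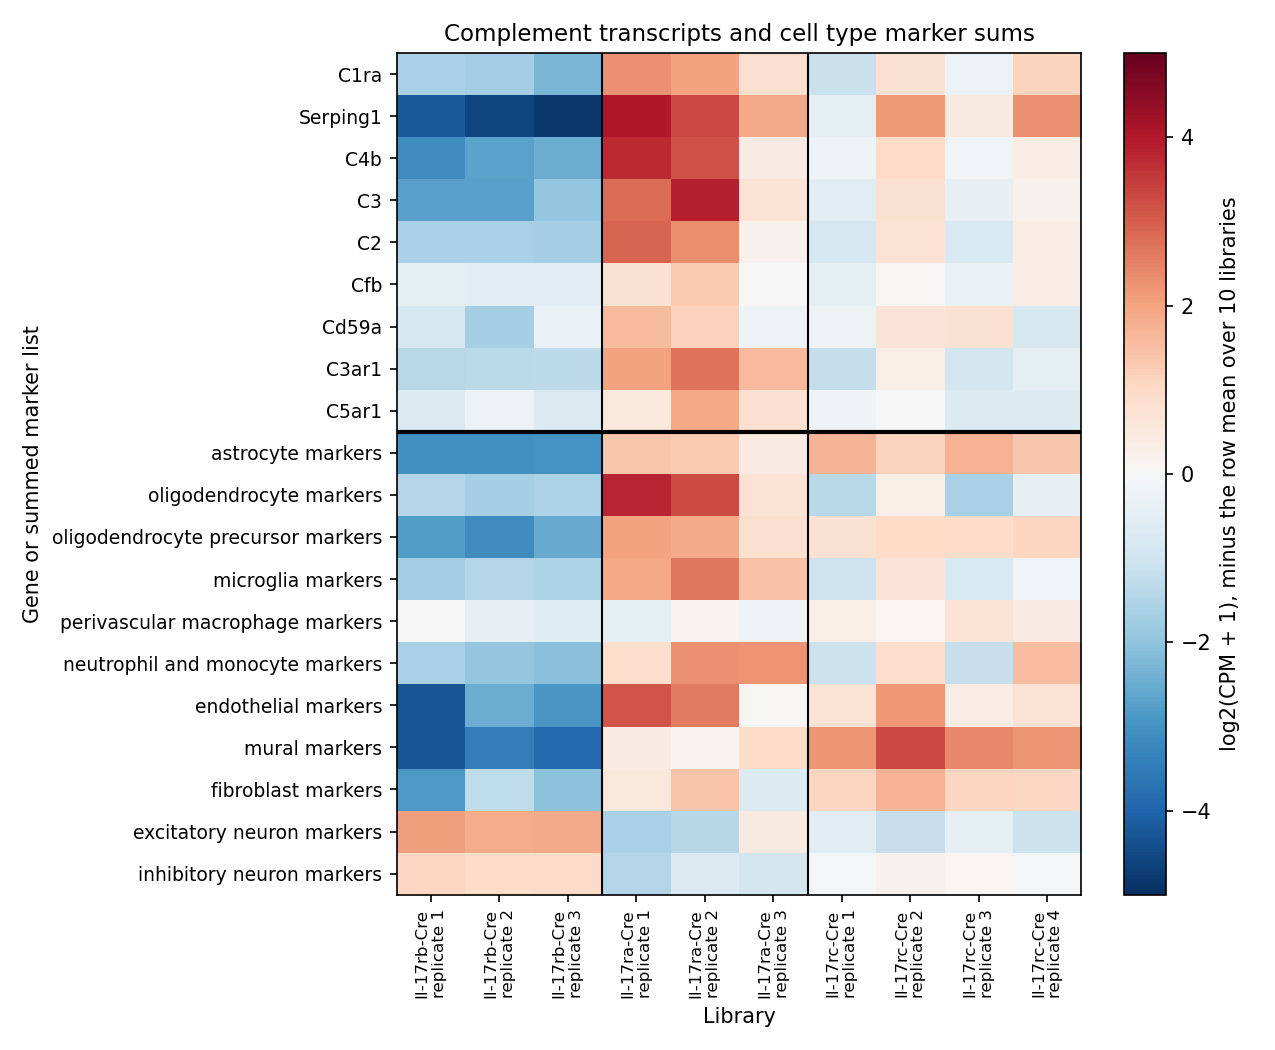
log2(CPM + 1) minus the row mean over the 10 libraries (colour) for the 9 complement genes and for the summed level of each marker list (rows) in each library (columns). Complement rows and glial marker rows are low in the 3 Il-17rb-Cre libraries, where the neuronal marker rows are high.

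Some transcripts had profiles close to those of the complement genes over the 10 libraries. Likeness was the mean absolute difference of centred log2(CPM + 1) values, among 12459 genes with a settled symbol and an average log2 CPM of at least 1. The closest to C3ar1 was Hcls1 (0.14), and its levels were 0.109 CPM in Il-17rb-Cre, 9.54 CPM in Il-17ra-Cre and 0.907 CPM in Il-17rc-Cre libraries. Serping1 was closest to Ifi47 (0.31) and Tgtp2 (0.33), C4b to Il33 (0.24) and Prr5l (0.35), and C1ra to Pik3ap1 (0.22) and Grn (0.25). C3 was closest to Adamtsl4 (0.29) and Hpgd (0.30), and C2 to Tprn and Slc44a1 (0.19 each). For Cfb, Cd59a and C5ar1 the closest were Zc3h7a (0.15), Foxn2 (0.34) and Snx20 (0.26). Low genes vary little on this scale, so their distances are small in any case. Genes close on this scale can still differ in fold. Zc3h7a averaged 16.1 CPM in Il-17rb-Cre and 37.9 CPM in Il-17ra-Cre libraries, where Cfb averaged 0.0232 and 1.58 CPM. For Pik3ap1 the means were 0.262 and 19.4 CPM, where C1ra averaged 5.69 and 85.0 CPM.

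The rest of the complement system did not move as one. Of 54 other complement genes listed, 36 passed the filter, and 13 fell and 8 rose in Il-17rb-Cre against Il-17ra-Cre, where 24.4% of all genes fell and 16.4% rose, with a median log2 fold change of -0.44. Against Il-17rc-Cre 12 fell and 6 rose, where 21.9% of all genes fell and 17.7% rose, with a median of -0.41. These medians are the same with Hc and Itgam, at 0 in all Il-17rb-Cre libraries, set to the bound that 3 counts over the group allow. Between Il-17ra-Cre and Il-17rc-Cre 4 were higher and 1 was lower in Il-17ra-Cre, with a median of 0.14. Of all genes, 1.38% were called higher and 0.798% lower in that comparison.

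Genes of the C1 complex fell together with the 9 genes. Of 5 tested, 5 fell in Il-17rb-Cre in both comparisons, where 24.4% and 21.9% of all genes fell. The C1q chains averaged 3.81 CPM (C1qa), 4.00 CPM (C1qb) and 2.23 CPM (C1qc) in Il-17rb-Cre libraries, 232, 264 and 196 CPM in Il-17ra-Cre libraries and 17.6, 20.96 and 16.6 CPM in Il-17rc-Cre libraries. They were also called higher in Il-17ra-Cre than in Il-17rc-Cre, by 3.72, 3.65 and 3.56 on the log2 scale (edgeR adjusted p = 0.0384, 0.0426 and 0.0384). These calls are lost with the replicate block, which leaves 0 genes higher, and whether the C1q chains differ from the complement genes downstream was not tested. C1s1, the partner protease of C1ra, is named here after its values were seen. It was at 0.150, 0.0934 and 0.0715 CPM in the Il-17rb-Cre libraries, 8.95, 9.39 and 4.38 CPM in the Il-17ra-Cre libraries and 1.50, 10.7, 3.46 and 11.3 CPM in the Il-17rc-Cre libraries. Its log2 fold change was -6.17 ± 0.86 in Il-17rb-Cre against Il-17ra-Cre (edgeR adjusted p = 4.25e-04) and 0.17 ± 0.62 in Il-17ra-Cre against Il-17rc-Cre (edgeR adjusted p = 0.931). As for C1ra, the highest Il-17rc-Cre libraries were replicates 2 and 4.

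Secreted regulators fell as well. Clu, clusterin, which binds the forming pore, averaged 224 ± 9.51 CPM (SD, n = 3) in Il-17rb-Cre libraries, 1752 ± 726 CPM (n = 3) in Il-17ra-Cre libraries and 1995 ± 218 CPM (n = 4) in Il-17rc-Cre libraries. Its log2 fold change of Il-17rb-Cre was -2.97 ± 0.30 against Il-17ra-Cre (edgeR adjusted p = 7.01e-05) and -3.15 ± 0.30 against Il-17rc-Cre (edgeR adjusted p = 3.43e-05). Vtn, vitronectin, is also among the mural markers and averaged 2.27 CPM in Il-17rb-Cre libraries, 82.7 CPM in Il-17ra-Cre libraries and 356 CPM in Il-17rc-Cre libraries. It was the one other complement gene called lower in Il-17ra-Cre than in Il-17rc-Cre (log2 fold change -2.11 ± 0.38, edgeR adjusted p = 0.0384). That call is lost without Il-17ra-Cre replicate 1 or 2 or Il-17rc-Cre replicate 3, fits that leave 0 genes lower. Among 4 receptors tested, 3 fell in Il-17rb-Cre against Il-17ra-Cre, and 1 fell against Il-17rc-Cre, where 24.4% and 21.9% of all genes fell. Itgb2, the shared chain of complement receptors 3 and 4, averaged 0.440 CPM in Il-17rb-Cre libraries, 23.2 CPM in Il-17ra-Cre libraries and 2.73 CPM in Il-17rc-Cre libraries. It fell against Il-17ra-Cre (log2 fold change -5.70 ± 1.51, edgeR adjusted p = 0.0128), while its libraries overlapped with those of Il-17rc-Cre and that value did not pass (-2.62 ± 1.30, edgeR adjusted p = 0.135).

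Some membrane regulators and C1q-binding pentraxins of neurons rose instead. Of 11 membrane regulators tested, 5 rose and 1 fell in Il-17rb-Cre against Il-17ra-Cre, and 4 rose and 1 fell against Il-17rc-Cre. Of all genes, 16.4% rose and 24.4% fell in the first comparison, and 17.7% rose and 21.9% fell in the second. Susd4, a membrane inhibitor of the cascade, averaged 144 CPM in Il-17rb-Cre libraries, 38.1 CPM in Il-17ra-Cre libraries and 49.2 CPM in Il-17rc-Cre libraries, and rose by 1.92 ± 0.38 (edgeR adjusted p = 0.00276) and 1.55 ± 0.34 (edgeR adjusted p = 0.00506) on the log2 scale in the 2 comparisons. Sez6, a neuronal protein with complement control domains, averaged 82.4 CPM in Il-17rb-Cre libraries, 30.3 CPM in Il-17ra-Cre libraries and 41.6 CPM in Il-17rc-Cre libraries. It rose against Il-17ra-Cre (1.44 ± 0.43, edgeR adjusted p = 0.0211), while its value against Il-17rc-Cre did not pass (0.99 ± 0.39, edgeR adjusted p = 0.0667). Its relative Sez6l2 averaged 103 CPM in Il-17rb-Cre libraries, 123 CPM in Il-17ra-Cre libraries and 36.0 CPM in Il-17rc-Cre libraries, so that it was lowest in Il-17rc-Cre (log2 fold change of Il-17rb-Cre against Il-17rc-Cre 1.52 ± 0.27, edgeR adjusted p = 0.00142).

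The one membrane regulator that fell was Cr1l, known in rodents as Crry, an inhibitor of C3 deposition, named here after its values were seen. It averaged 6.75 CPM in Il-17rb-Cre libraries, 26.4 CPM in Il-17ra-Cre libraries and 26.2 CPM in Il-17rc-Cre libraries, with log2 fold changes of -1.97 ± 0.22 and -1.96 ± 0.21 for Il-17rb-Cre (edgeR adjusted p = 1.28e-04 and 8.9e-05). Of 4 neuronal C1q binders tested, 2 rose in Il-17rb-Cre in both comparisons, where 16.4% and 17.7% of all genes rose. Nptxr, the neuronal pentraxin receptor, averaged 260.4 CPM in Il-17rb-Cre libraries, 70.4 CPM in Il-17ra-Cre libraries and 79.0 CPM in Il-17rc-Cre libraries, and Nptx1, neuronal pentraxin 1, averaged 238 CPM in Il-17rb-Cre libraries, 77.9 CPM in Il-17ra-Cre libraries and 66.6 CPM in Il-17rc-Cre libraries. For Nptxr the rise was 1.89 ± 0.21 against Il-17ra-Cre (edgeR adjusted p = 1.09e-04) and 1.72 ± 0.19 against Il-17rc-Cre (edgeR adjusted p = 8.55e-05). Excitatory neuron markers rose in the same comparisons, 6 of 7 against Il-17ra-Cre and 7 of 7 against Il-17rc-Cre, and their part in these results was not tested.

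**Figure D5:**
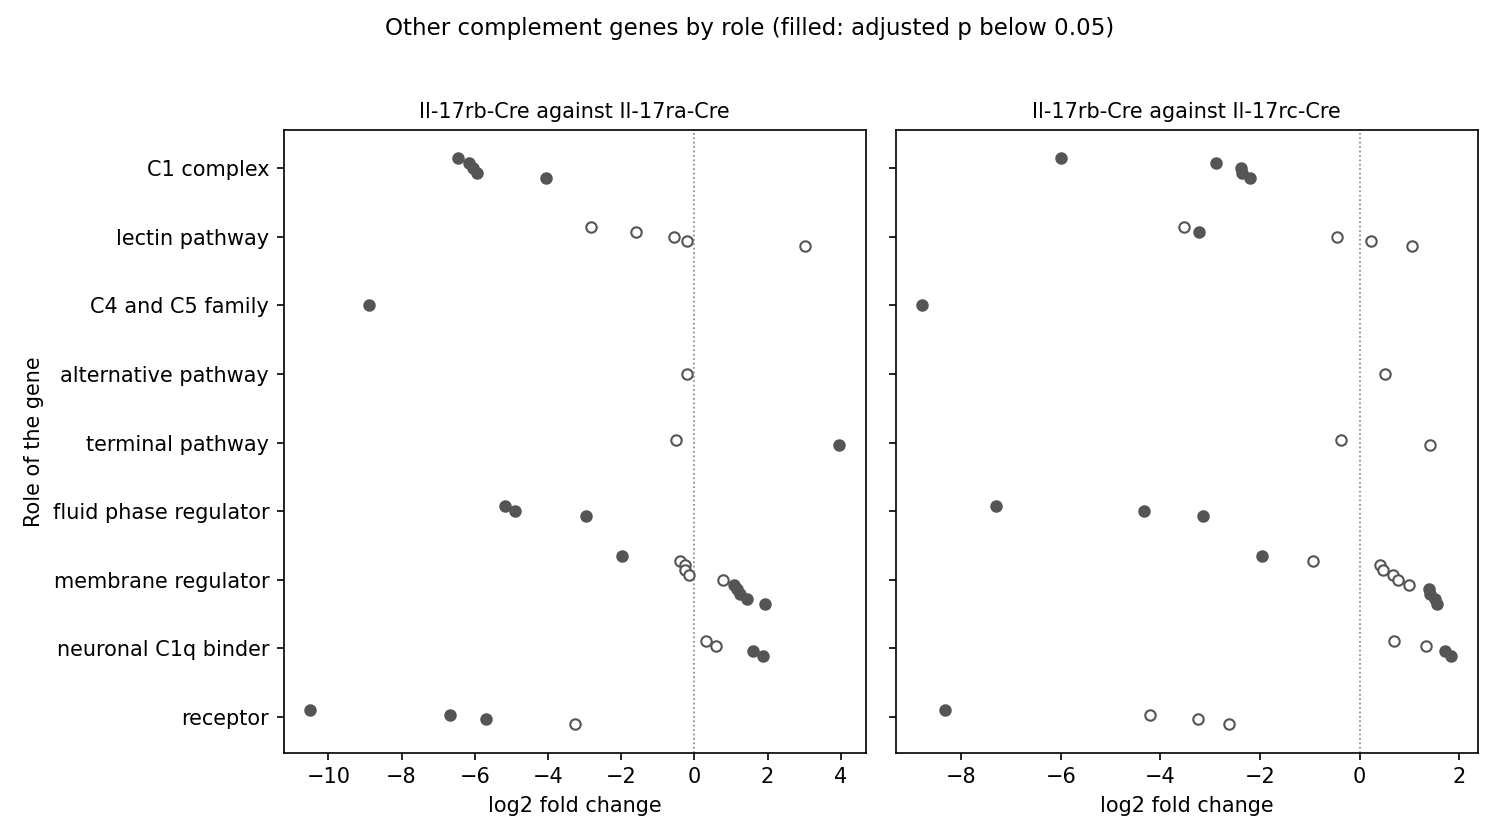
Log2 fold change (x) of each of the 36 other complement genes tested, grouped by role (y), for Il-17rb-Cre against Il-17ra-Cre (left) and Il-17rc-Cre (right), filled where the edgeR adjusted p was below 0.05. All 5 C1 complex genes and all 3 fluid phase regulators are filled and below 0, and values of genes at 0 in all Il-17rb-Cre libraries depend on the prior count.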

How the data were processed

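The deposited table holds raw read counts for each gene and library. Alignment was with STAR 2.7.5c to GRCm38, per the submitters' processing notes. Per the labels' protocols, an anti-GFP pull-down gave the RNA, which went into a SMART-Seq kit that amplifies cDNA and does not mark strand. The counting tool, its strand setting and the annotation release are not stated in these sources. All 55536 identifiers matched GENCODE release M21 (GRCm38), which gave symbols, coordinates and exonic lengths, and no column was left unmapped (0).

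Filtering by group with edgeR, with 5 IL-17 receptor genes always retained, kept 20301 genes and dropped 35235. After TMM scaling, the quasi-likelihood test of edgeR 4.0.16 (R 4.3.3) was run on a model of driver fitted to all 10 libraries. Benjamini-Hochberg correction ran over all genes of a comparison, at 0.05. The biological coefficient of variation was 0.489. On simulated counts the script recovered 191 of 200 changed genes for Il-17rb-Cre against Il-17ra-Cre and 194 of 200 for Il-17rb-Cre against Il-17rc-Cre, among 20301 genes. These figures check that the script runs as meant. They do not give the power in these data, and none is given for Il-17ra-Cre against Il-17rc-Cre. CPM values are TMM-scaled, and CPM per kilobase divides them by exonic length. The filter and the scaling act on all genes, so levels are relative to each library's total.

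Members, lists and tests were chosen with earlier results of these data known. Other complement genes were named when past the threshold with a mean of at least 5 CPM, up to 3 per role, plus copies of members and the C1q chains. For likeness, up to 2 genes per complement gene were kept. Alternatives were DESeq2 1.42.0, limma 3.58.1 (voom with quality weights), other scalings and filters, fits of 2 groups, replicate blocks and left-out libraries.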

Additional observations from a re-analysis of the deposited data

Results flagged for a closer look

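Of 24 gene levels and marker sums examined in the 4 Il-17rc-Cre libraries, 3 had a library far from the others. Chance alone marks about 1 in 20, but the 24 come from the same 4 libraries and are not independent. In each case it was Il-17rc-Cre replicate 2, which had the highest sum of endothelial markers at 195.32 CPM, of mural markers at 1053.1 CPM and of fibroblast markers at 31.46 CPM. The gap to the nearest library took 0.892, 0.878 and 0.97 of the group's range in these 3 lists. The same library was the highest of its group for C4b, C3, C2, C3ar1 and C5ar1, and the part of vascular markers in those levels was not tested. Without it, 1 complement gene was called higher in Il-17ra-Cre than in Il-17rc-Cre. Over all genes, 0 to 1541 were called higher in that comparison with libraries left out.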

How the results depend on the processing

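Of 21 alternatives per comparison, none turned a complement gene's direction in the comparisons with Il-17rb-Cre. Lower genes numbered 7 to 8 against Il-17ra-Cre and 6 to 7 against Il-17rc-Cre with libraries left out, and 7 to 9 and 5 to 7 under the other tested settings. Cd59a, Cfb and C3 were the genes that lost a call there, and Cfb was not tested with a filter at 1 CPM in 3 libraries. For Il-17ra-Cre against Il-17rc-Cre none of 9 was called in the main fit. With libraries left out 0 to 5 were called higher, where 0 to 1541 of all genes were. Under the other settings 0 to 8 were called higher, where 0 to 2716 of all genes were. The number was 3 with DESeq2 and 8 with limma voom, where 5.04% and 13.4% of all genes were called higher. The cause of these shifts was not tested. Cd59a reversed to -0.63 in that comparison without Il-17ra-Cre replicates 1 and 2.

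Replicate numbers were not shown to pair libraries (correlations of deviations -0.046, 0.059 and -0.15 for Il-17rb-Cre and Il-17ra-Cre, -0.0085, 0.029 and -0.087 for Il-17rb-Cre and Il-17rc-Cre, and -0.11, 0.25 and 0.20 for Il-17ra-Cre and Il-17rc-Cre). With the replicate block, Cfb and C3 no longer passed against Il-17rc-Cre (edgeR adjusted p = 0.0668 and 0.0682), and with library-name numbers Cd59a no longer passed against Il-17ra-Cre (edgeR adjusted p = 0.0854). Over all genes, those higher in Il-17ra-Cre than in Il-17rc-Cre numbered 281, but 0 with the block or with only these 2 groups, 0 to 1541 with libraries left out, 1001 with DESeq2 and 2716 with limma voom. Those lower numbered 162, but 2 with the block, 1 with only these groups, 0 to 1345 with libraries left out, 1131 with DESeq2 and 1863 with limma voom. The lowest counts, 0 in both directions, came without Il-17ra-Cre replicate 1 or 2, Il-17rc-Cre replicate 3, or Il-17rc-Cre replicates 1 and 3, and the highest without Il-17ra-Cre replicate 3. Those higher in Il-17rb-Cre than in Il-17rc-Cre numbered 3603, but 2221 and 2267 without its replicate 2 or 3, 2305 without Il-17rc-Cre replicates 1 and 3 and 5582 with limma voom, and against Il-17ra-Cre 3321, but 5085 with limma voom. Levels of Cfb, C3ar1, C5ar1 and C3 in Il-17rb-Cre rest on few reads, so differences at that end are limited by depth.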
